A study of Mus musculus with 25 samples.

Results

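The libraries described here are the 16 wild-type (WT) libraries, of 25 in all, put in order by their level of Prdm1. The libraries were chosen by their genotype label, and their order was chosen by the measured Prdm1 value. Each gene with a deposited value of at least 1 in 8 or more of them was related to Prdm1 across them, on the scale of log2(value + 1), without and with the mean of Cd3d, Cd3e and Cd3g as a covariate. Prdm1 was the gene that set the order, so its own level within WT is a description. The direction of each relation was then set beside the direction of change in the libraries that lack Prdm1.

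All libraries hold CD8+ T cells from B16F10 tumours, a transplanted mouse melanoma, grown in C57BL/6 mice, and were made in bulk with a SMART-Seq 2 adaptation. The groups are 3 Prdm1 cKO libraries (conditional knockout of Prdm1), 3 Prdm1/c-Maf cDKO libraries (conditional knockout of both genes), 3 c-Maf cKO libraries and the 16 WT libraries. The deleting Cre line is not given in the sources used here. Nothing says that the libraries of a group came from separate animals, so the p-values measure the spread between these libraries, which may be technical.

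Prdm1 encodes Blimp-1, a zinc finger protein that mostly represses transcription and is best known for driving plasma cell differentiation. In CD8+ T cells it accompanies terminal effector differentiation and, in chronic infection and tumours, the expression of several inhibitory receptors. Genes of naive and memory T cells are among those it is known to repress.

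Prdm1 was 4.71, 0.41 and 3.66 in the Prdm1 cKO libraries and 4.69, 1.18 and 3.27 in the cDKO libraries, on the deposited normalised scale. In the c-Maf cKO libraries it was 20.31, 14.44 and 16.28. In WT it averaged 15.5 ± 5.31 (SD, n = 16), with 6.45 as the lowest value, 14.5 as the median and 24.85 as the highest. Every library lacking Prdm1 lay below every WT library, and the c-Maf cKO libraries lay inside the WT range. The exact permutation test of each difference between a Prdm1-deficient group and WT gave p = 0.00103, two-sided, the smallest that the 969 splits allow. The lowest WT library, B3, stood closer to the highest cKO library than to the WT median. Library names such as B3 are the codes at the start of the table's column headers.

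**Figure D1:**
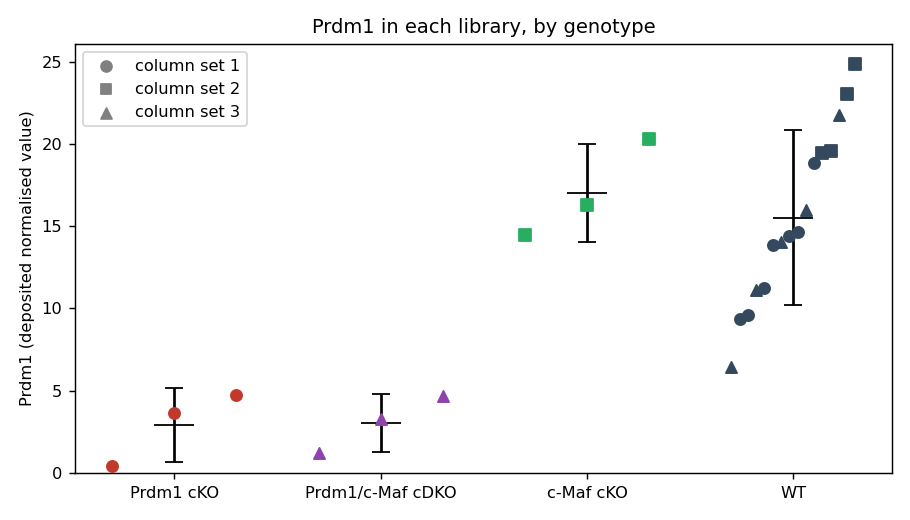
Prdm1 as deposited (y axis, linear, from 0) in each library, by genotype (x axis), with the mean and SD of each group as bars. Marker shapes give the column set; the 6 libraries lacking Prdm1 all sit below the lowest WT library, at 6.45.

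WT columns stand in 3 runs in the table, each beside 1 knockout group, and these runs are called column sets here. The labels do not say what they are. Prdm1 averaged 13.1 ± 3.33 in set 1 (SD, n = 7), 21.7 ± 2.68 in set 2 (SD, n = 4) and 13.9 ± 5.68 in set 3 (SD, n = 5), and column set accounted for 40.2% of its variance within WT. Set 2 did not overlap set 1. Set 3, at 6.45 to 21.73, covered the range of set 1 and overlapped the lower part of set 2, at 19.42 to 24.85.

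The WT libraries with more Prdm1 had more of the CD3 genes, which encode the signalling chains of the T cell receptor complex, and less of the melanoma markers. The CD3 mean ran between 7.52 in B3 and 8.997 in B1 on the log2 scale, with Pearson's r = 0.791 (permutation p = 0.00025) and Spearman's rho = 0.684 (permutation p = 0.00421) against Prdm1. The adjusted values over 16 measures were 0.00133 and 0.0135. Without B3 and B5, the 2 libraries farthest from the median of Prdm1, r was 0.649 (permutation p = 0.0138). Within column sets it was 0.771 (permutation p = 0.0128). These p-values are unadjusted. After adjustment over the 16 measures, 2 measures passed without B3 and B5 and 1 within column sets, and the CD3 mean passed in neither. The 3 genes differed. Singly, r was 0.611 for Cd3d, 0.697 for Cd3e and 0.893 for Cd3g. Without B3 and B5 it was 0.317, 0.577 and 0.832.

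The share of summed values taken by Rn45s, a ribosomal RNA precursor, ran between 10.4% and 17.3% and fell with Prdm1, with r = -0.858 (permutation p = 3e-05, adjusted 0.00048) and rho = -0.749 (permutation p = 0.00121, adjusted 0.00484). Its r was -0.799 without B3 and B5 and -0.862 within column sets, and both passed after adjustment over the 16 measures. The melanoma score, the mean log2(value + 1) of 11 markers, ran between 0.545 in B6 and 7.41 in B3, with r = -0.64 (permutation p = 0.00707, adjusted 0.0189) and rho = -0.774 (permutation p = 0.00072, adjusted 0.00384). Without B3 and B5 its r was -0.485 (permutation p = 0.0715) and within column sets -0.575 (permutation p = 0.127), so neither of these passed 0.05. The gamma delta T cell score fell with Prdm1, with r = -0.733 (permutation p = 0.00105, adjusted 0.00413) and rho = -0.781 (permutation p = 0.00058, adjusted 0.00384). Its r was -0.568 without B3 and B5 (permutation p = 0.0304) and -0.688 within column sets (permutation p = 0.0229). Neither of these passed after adjustment over the 16 measures. The gamma delta score rests on 2 of 5 markers and ran between 0 and 0.908 with a median of 0.0622. Neither marker passed the filter on low values.

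The CD8 T cell score, which shares the CD3 genes, was higher with Prdm1, with r = 0.731 (permutation p = 0.00129, adjusted 0.00413) and rho = 0.618 (permutation p = 0.0122, adjusted 0.0243). By rho the B cell score (rho = -0.638, permutation p = 0.00981, adjusted 0.0224) and the neutrophil score (rho = -0.659, permutation p = 0.00668, adjusted 0.0178) also passed, while their r of -0.527 and -0.459 did not after adjustment (0.0715 and 0.108). The macrophage score gave r = -0.242 (permutation p = 0.364) and rho = -0.229 (permutation p = 0.391). In bulk libraries, fewer T cells and less T cell RNA per cell cannot be told apart.

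**Figure D2:**
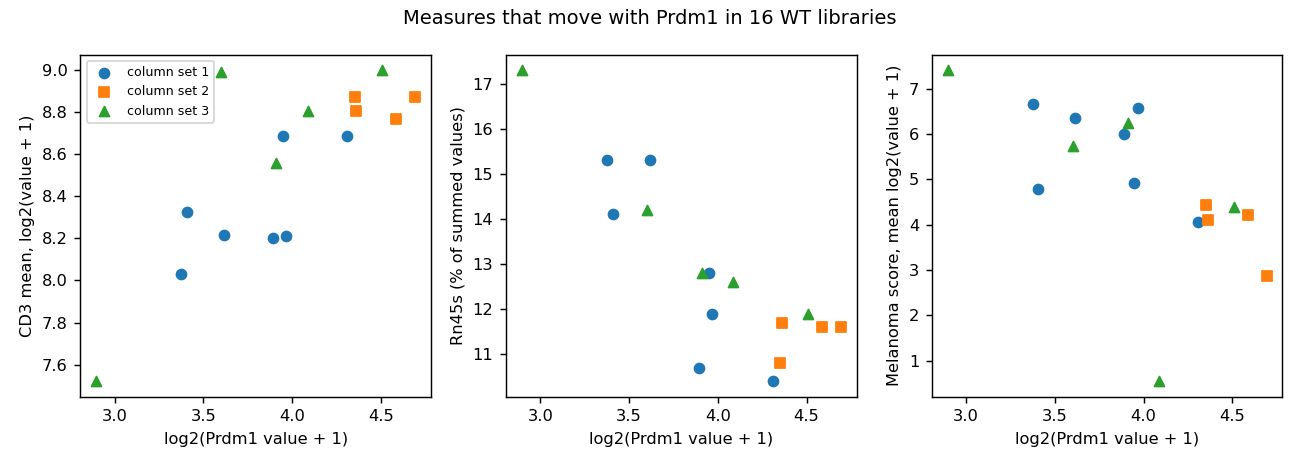
CD3 mean, Rn45s share and melanoma score (y axes) against log2(Prdm1 + 1) (x axis) in the 16 WT libraries, each point 1 library, with shapes for column sets. The CD3 mean is higher and the Rn45s share lower at higher Prdm1, and B3 lies at the end of all 3 plots.

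Among 10484 genes tested with limma, 994 were higher with Prdm1 (9.48%) and 682 lower (6.51%) at an adjusted p under 0.05, 16% in all. Without B3, the library with the lowest Prdm1, 652 genes were called. Slopes are in log2 units of the gene per log2 unit of Prdm1. With the CD3 mean as covariate, 39 of 10481 genes were higher (0.372%) and 17 lower (0.162%), and 1540 passed an unadjusted p of 0.05 (14.7%). Of these 56 genes (0.534%), 35 were also called in the same direction without the covariate. With so few calls in the CD3 fit, a gene list with none called says little about that list. Column set as the only covariate left 400 genes higher (3.82%) and 245 lower (2.34%), 6.15% in all. No gene was called with the CD3 mean and either column set or Rn45s as further covariates in limma, and 890 passed an unadjusted p of 0.05 with the CD3 mean and column set (8.49%). Without library B4 the CD3 fit called no gene either; B4 had low Prdm1 (11.13) and a high CD3 mean (8.986).

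A count of this size was not particular to Prdm1. Ordering the same libraries by Id2 gave 1859 genes, by Cd3e 1729, by the cytoskeletal gene Actb 1434, by Tbx21 701, by Eomes 453, by Tcf7 394 and by Tox 337. Ordering by Irf4 gave 0.

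Co-inhibitory receptors, which restrain activated T cells, were higher in the WT libraries with more Prdm1. Of 19 tested, 10 were higher with Prdm1 and none lower, against 9.48% and 6.51% of all genes. Their median slope was 0.732, against 0.0531 over all genes. In the Prdm1 cKO 3 of 20 tested were called lower and 1 higher, against 2.37% and 1.89% of all genes. Their median difference from WT was -0.0746 there, against -0.0334 over all genes, so the list did not fall as a whole. In the cDKO 8 of 20 were called lower and none higher, against 8.19% and 5.88% of all genes, with a median of -0.914 against -0.0395. Havcr2, which encodes TIM-3, was 6.78, 1.11 and 7.76 in the Prdm1 cKO libraries, 3.04, 3.65 and 2.05 in the cDKO libraries, and in WT had 13.13 as its lowest, 43.4 as its median and 84.26 as its highest value. The knockout values all lay below the WT range. Its slope was 1.44 ± 0.13 (SE; limma adjusted p = 7.88e-06), with r = 0.941 (permutation p = 1e-05, the smallest the permutations can give) and rho = 0.932. Without B3 and B5 its r was 0.929, and within column sets 0.922. With the CD3 mean the slope was 1.28 ± 0.22 (limma adjusted p = 0.0163), and without B4 that slope was 0.86 (limma adjusted p = 0.251).

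Pdcd1, which encodes PD-1, was 138.88, 26.45 and 45.05 in the Prdm1 cKO libraries, 42.90, 19.26 and 16.89 in the cDKO libraries, and 56.52 to 334.16 in WT with a median of 192.9. One cKO library lay inside the WT range and the other 5 knockout libraries below it. The slope was 1.46 ± 0.16 (SE; limma adjusted p = 3.56e-05), and 1.64 ± 0.26 with the CD3 mean (limma adjusted p = 0.0163). The difference from WT was -1.63 in the Prdm1 cKO (limma adjusted p = 0.0533) and -2.79 in the cDKO (limma adjusted p = 0.00064). Against only the WT of the knockout's own column set it was -1.43 (limma adjusted p = 0.245) and -2.47 (limma adjusted p = 0.052).

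Entpd1, which encodes the ectonucleotidase CD39, was 5.97, 6.60 and 18.57 in the Prdm1 cKO libraries, 3.65, 1.76 and 2.15 in the cDKO libraries, and 11.16 to 52.93 in WT with a median of 29.9. One cKO library overlapped WT. Its slope was 1.19 ± 0.14 (SE; limma adjusted p = 5.66e-05), and 1.17 ± 0.23 with the CD3 mean (limma adjusted p = 0.0283). Lag3, a receptor for MHC class II, had a slope of 1.16 (limma adjusted p = 0.000806), and Tigit and Ctla4 had 0.92 and 0.78. After adjustment for CD3 their slopes were 1.25, 0.45 and 0.89, and none of these passed the adjusted threshold.

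**Figure D3:**
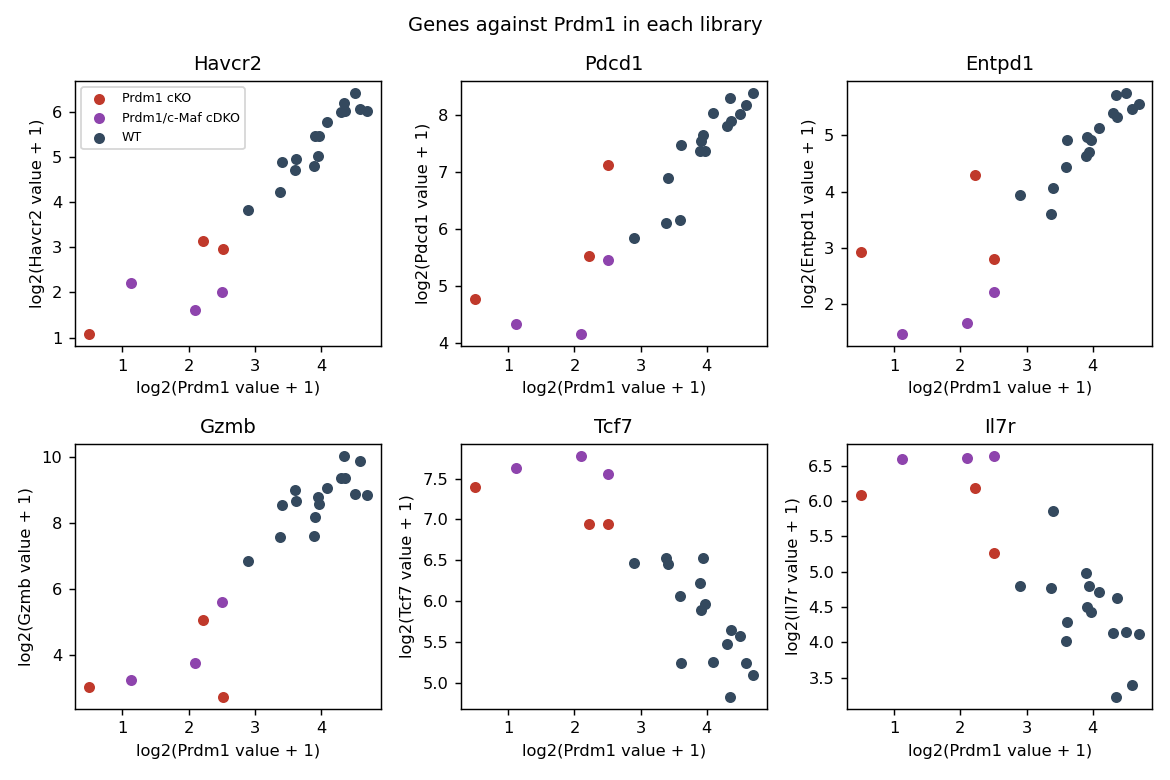
Havcr2, Pdcd1, Entpd1, Gzmb, Tcf7 and Il7r (y axes, log2(value + 1)) against log2(Prdm1 + 1) (x axes), each point 1 library of the Prdm1 cKO, cDKO or WT. Havcr2, Pdcd1, Entpd1 and Gzmb are higher and Tcf7 and Il7r lower at higher Prdm1 in WT, and the knockout libraries lie to the left.

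Cytotoxic genes were also higher with Prdm1, 7 of 18 and none lower, against 9.48% and 6.51% of all genes. Their median slope was 0.847. None of the 18 was called with the CD3 mean, against 0.534% of all genes. Gzmb, which encodes granzyme B, was 5.68, 7.18 and 32.17 in the Prdm1 cKO libraries, 47.33, 8.49 and 12.47 in the cDKO libraries, and 114.16 to 1050.61 in WT with a median of 449.6. No knockout library reached the WT range. The slope was 1.27 ± 0.28 (SE; limma adjusted p = 0.00623) and 0.46 ± 0.39 with the CD3 mean (limma adjusted p = 0.631). Adding column set to that fit gave a Gzmb slope of -0.13. The differences from WT were -5.09 in the Prdm1 cKO and -4.51 in the cDKO. Prf1, the pore-forming perforin, had a slope of 1.81 (limma adjusted p = 0.00359), and Nkg7, a granule protein, 0.86 (limma adjusted p = 0.000582).

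Transcription factors of effector and exhausted T cells were called higher for 11 of 19 and lower for 1, against 9.48% and 6.51% of all genes. Tox, which supports the exhausted state, had a slope of 1.29 (limma adjusted p = 0.000267) and 1.65 with the CD3 mean (limma adjusted p = 0.0163). It was the only member of that list called with the CD3 mean. Id2, another member, had a slope of 0.76. The exception in the list was Zeb2, with -0.78 (limma adjusted p = 0.0119). Zbtb32, which is not in the list, had a slope of 1.90.

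S phase genes, which serve DNA replication, were higher with Prdm1 for 14 of 19, with a median slope of 0.52. G2 and M phase genes were higher for 6 of 20, with a median of 0.464. Of all genes 9.48% were higher. In the CD3 fit 4 S phase genes were called higher and the median was 0.784, while no G2 and M phase gene was called and their median was 0.7. With column set 4 S phase genes and no G2 and M phase gene were called. Fen1, a flap endonuclease, had 0.82 (limma adjusted p = 0.000499) and 1.09 with the CD3 mean (limma adjusted p = 0.0183). Mcm6, a subunit of the replicative helicase, differed from WT by -0.95 in the Prdm1 cKO (limma adjusted p = 0.0142) and by -0.89 in the cDKO (limma adjusted p = 0.00519). Against only the WT of the knockout's own column set it differed by -0.81 (limma adjusted p = 0.117) and -0.73 (limma adjusted p = 0.0474).

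Co-stimulatory receptors were higher with Prdm1 for 5 of 10 and lower for none, against 9.48% and 6.51% of all genes. None of the 10 was called in the CD3 fit, against 0.534% of all genes. Tnfrsf9, which encodes 4-1BB, was 72.28, 26.27 and 19.21 in the Prdm1 cKO libraries, 37.27, 7.82 and 13.76 in the cDKO libraries, and 46.34 to 301.88 in WT with a median of 153.4. One cKO library lay inside the WT range. Its slope was 1.31 ± 0.22 (SE; limma adjusted p = 0.00104). Cytokine receptors went both ways, with 4 of 17 higher and 3 lower, against the same 9.48% and 6.51%. Their median slope was 0.157, and -0.215 in the CD3 fit, where 1 was called. That gene was Il2rb. Il2rb, a chain of the receptors for interleukins 2 and 15, had a slope of 0.95 ± 0.10 (SE; limma adjusted p = 3.56e-05) and 0.75 ± 0.16 in the CD3 fit (limma adjusted p = 0.0386). Of 16 chemokines and chemokine receptors, 1 was called higher and none lower, both below these shares of all genes. Their median slope was -0.0249. The 1 called was Cxcr6, a chemokine receptor of resident T cells. Cxcr6 was 29.43, 10.95 and 38.37 in the Prdm1 cKO libraries, 56.67, 8.68 and 12.77 in the cDKO libraries, and 56.36 to 274.08 in WT with a median of 171.7. The highest cDKO value just overlapped the lowest WT value. Its slope was 1.11 ± 0.21 (SE; limma adjusted p = 0.00216), and 0.19 ± 0.20 in the CD3 fit (limma adjusted p = 0.703), so the call was lost.

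Naive, memory and stem-like genes ran the other way, with 5 of 19 lower and 1 higher, against 6.51% and 9.48% of all genes. Their median slope was -0.437. None of the 5 was called lower with column set or with the CD3 mean as covariate, against 2.34% and 0.162% of all genes. The CD3 fit called 1 other member of the list lower, Ly6c2, a surface marker of memory T cells that is named here after its values were seen, and the median of the list was -0.429. Tcf7, which encodes TCF-1, was 121.94, 167.41 and 121.89 in the Prdm1 cKO libraries, 187.37, 196.57 and 218.46 in the cDKO libraries, and 27.55 to 91.27 in WT with a median of 53.9. All 6 knockout libraries lay above WT. Its slope was -0.82 ± 0.19 (SE; limma adjusted p = 0.00585) and -0.81 ± 0.31 with the CD3 mean (limma adjusted p = 0.233). The differences from WT were 1.31 in the Prdm1 cKO (limma adjusted p = 0.0158) and 1.87 in the cDKO (limma adjusted p = 0.000196). Against only the WT of the knockout's own column set they were 1.03 (limma adjusted p = 0.131) and 1.80 (limma adjusted p = 0.00899). Il7r, the interleukin-7 receptor chain, had a slope of -0.73 (limma adjusted p = 0.0486), and Satb1 -0.62 (limma adjusted p = 0.024). Id3 and Lef1 did not pass, at -0.63 and -0.44. Immediate early and heat shock genes were lower with Prdm1 for 4 of 16 and higher for none, against 6.51% and 9.48% of all genes. Their median slope was -0.24. None was called in the CD3 fit (0.534% of all genes), where the median turned to 0.163, and 1 was lower with column set. Jun, a subunit of the AP-1 factor, was 100.84, 148.50 and 202.85 in the Prdm1 cKO libraries, 82.27, 74.59 and 112.45 in the cDKO libraries, and 26.96 to 77.10 in WT with a median of 37.2. One cDKO library lay inside the WT range. The slope of Jun was -0.71 ± 0.19 (SE; limma adjusted p = 0.0165). Of the 9 tested genes described as Blimp-1 repression targets, 4 were lower with Prdm1 and none higher, against 6.51% and 9.48% of all genes. This list shares Tcf7, Bcl6, S1pr1, Id3, Ccr7 and Klf2 with the naive, memory and stem-like genes. It shares Fos with the immediate early genes, so the counts of these lists are not separate. None of the 9 was called with the CD3 mean or with column set, against 0.534% and 6.15% of all genes.

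Melanoma markers and ribosomal protein genes also moved with Prdm1. Of 11 melanoma markers, 6 were lower, against 6.51% of all genes, with a median slope of -2.26. None of the 11 was called with the CD3 mean or with column set, against 0.534% and 6.15% of all genes. Tyr, the pigment enzyme tyrosinase, had 5.57 as its lowest and 187.02 as its highest WT value and a slope of -2.17 (limma adjusted p = 0.0031). With the melanoma score as a covariate, 387 genes were higher (3.69%) and 111 lower (1.06%) with Prdm1, 4.75% in all. Ribosomal protein genes were higher for 25 of 82, against 9.48% of all genes, with a median slope of 0.192. None was called with the CD3 mean, against 0.534% of all genes. Of the 82, 64 were called higher in the cDKO than in WT, against 5.88% of all genes, so they did not run opposite to the knockout. The part of CD3, Rn45s and tumour cell RNA in these slopes was not tested beyond the covariate fits given.

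**Figure D4:**
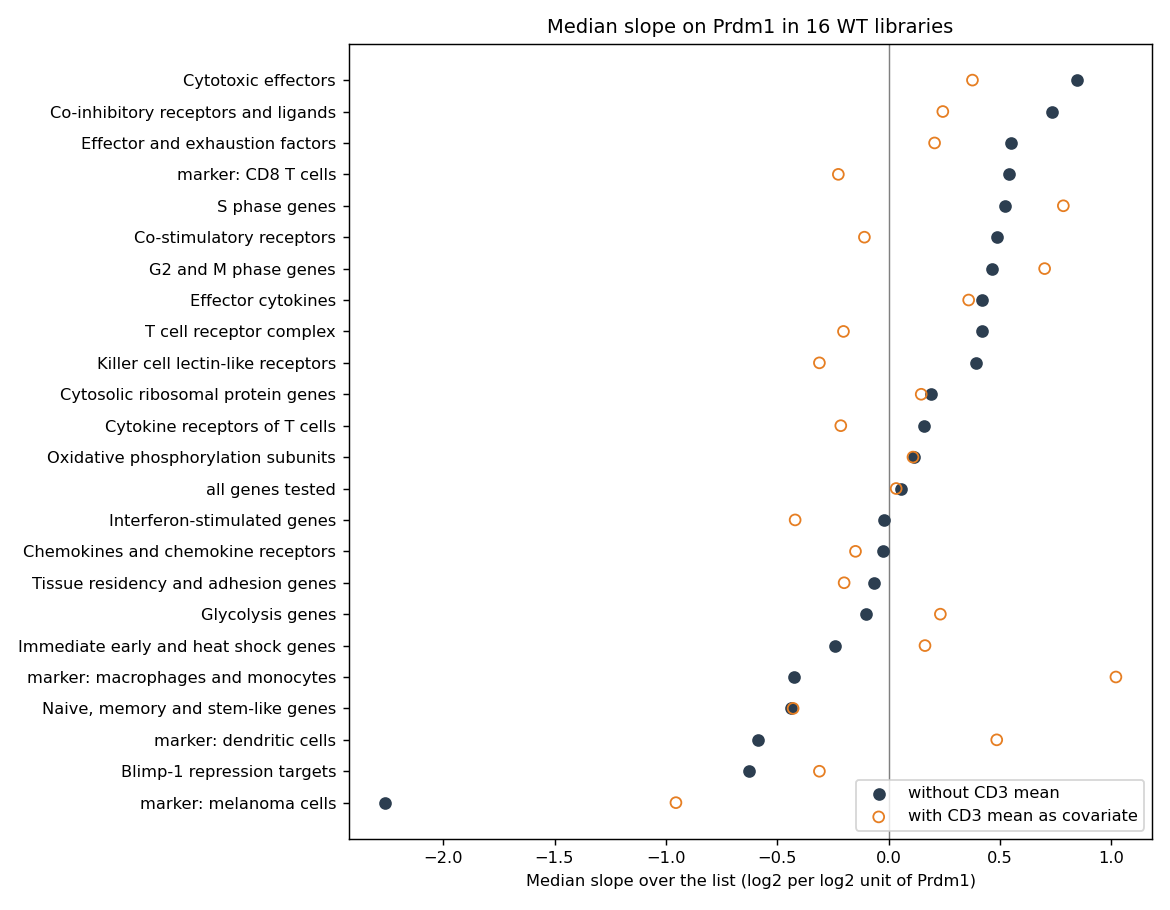
Median slope (x axis, log2 per log2 unit of Prdm1) of each gene list with at least 5 genes tested (y axis), without the CD3 mean (filled) and with it (open). Cytotoxic and co-inhibitory lists lie highest without it, at 0.847 and 0.732, and melanoma markers lowest, at -2.26.

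The 5 named genes that ranked highest in the CD3 fit were Pdcd1, Fam3c, Rgs16, Tox and Havcr2, and the 5 lowest were Ccl5, Itgax, Rasa3, Pvr and Enthd2. Ccl5, a chemokine of effector T cells, had a slope of 0.03 without the covariate and -1.01 with it (limma adjusted p = 0.0283). In B4 it was 3802.36, the highest WT value. Its difference from WT was -1.07 in the Prdm1 cKO (limma adjusted p = 0.0389), so it did not run opposite to the knockout. Against only the WT of set 1 the difference was -0.84 (limma adjusted p = 0.141). The sign changed with the CD3 mean for 105 of 1673 genes called without it.

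**Figure D5:**
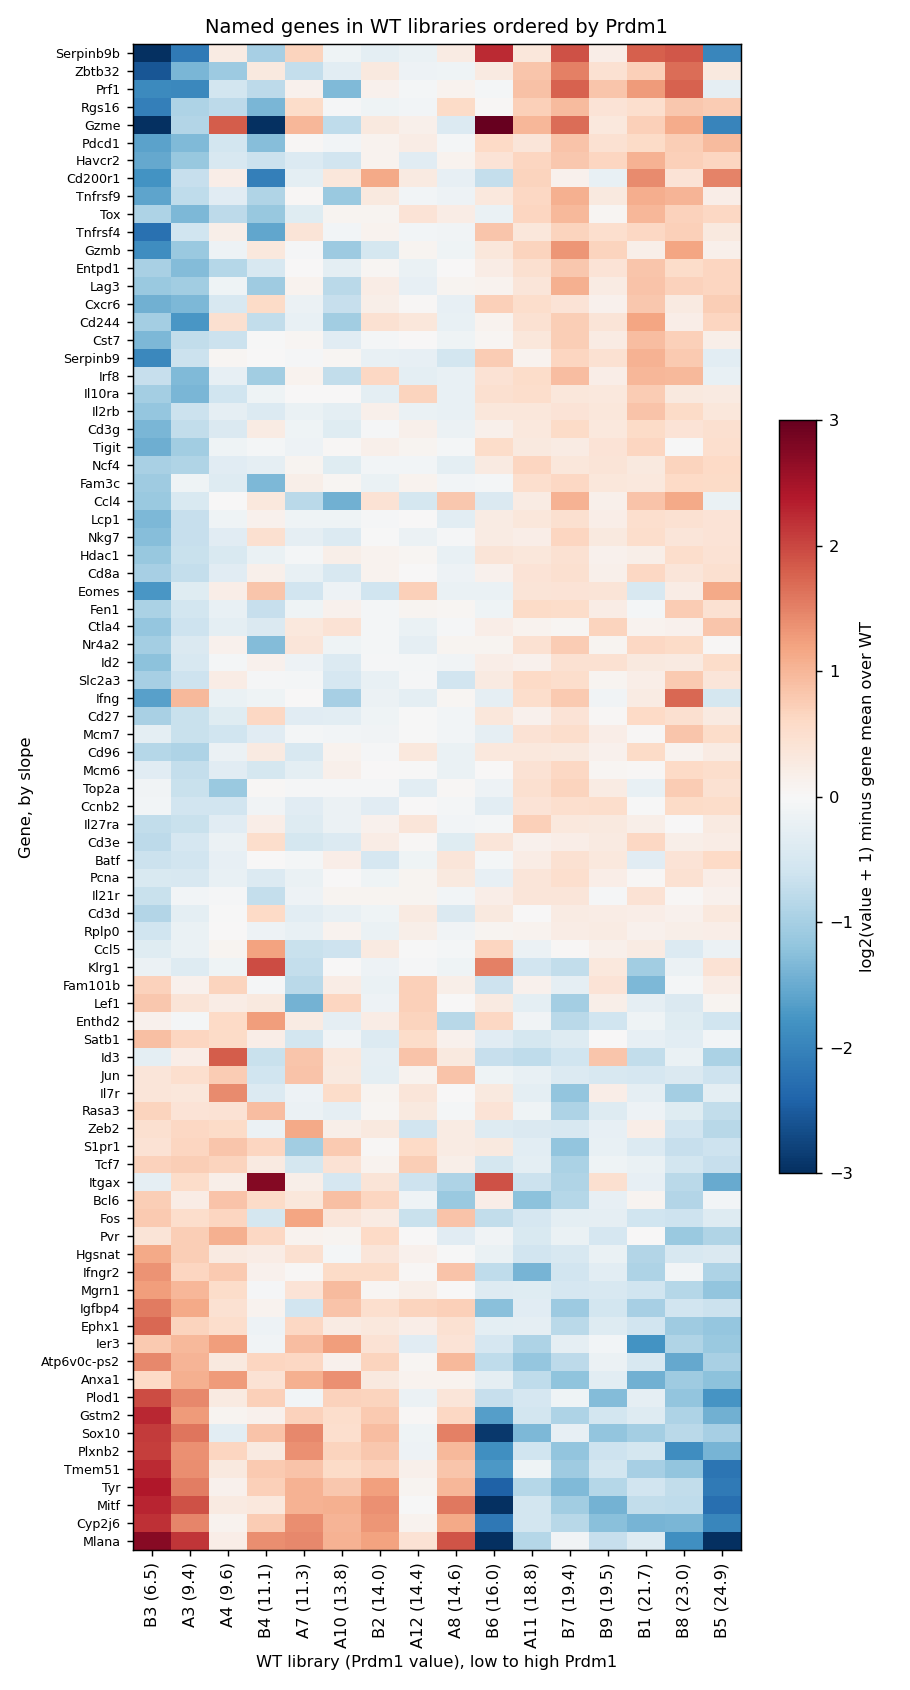
Named genes (rows, by slope) in the 16 WT libraries (columns, low to high Prdm1, with the Prdm1 value in brackets), coloured by log2(value + 1) minus the gene's WT mean. Havcr2 and Pdcd1 are blue at low and red at high Prdm1, the melanoma genes at the foot the reverse, with B6 out of step with its neighbours.

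The relations in WT were mostly opposite to the change in the knockouts. Of the 994 genes higher with Prdm1, 875 were lower in the Prdm1 cKO than in WT (88%), against 69.2% of all genes with a positive slope, and 85 were called lower. In the cDKO 886 were lower (89.1%), against 65.4%, and 359 were called lower. Of the 682 genes lower with Prdm1, 580 were higher in the Prdm1 cKO (85%, against 64.1%) and 473 in the cDKO (69.4%, against 60.9%). Over all 10781 genes tested, 1.89% were called higher and 2.37% lower in the Prdm1 cKO, 4.27% in all. In the cDKO 5.88% were called higher and 8.19% lower, 14.1% in all. These comparisons share the WT libraries, so the count is a description. The CD3 mean was 8.119, 8.183 and 7.837 in the Prdm1 cKO libraries and 8.627, 7.671 and 8.009 in the cDKO libraries. The WT median was 8.686, so all 6 lay below it. All lay inside the WT range, but its lower end was set by B3 alone (7.522). The next lowest WT library, A3, stood at 8.029, above the knockout values of 7.837, 7.671 and 8.009. Of the CD3 genes, Cd3g was called lower in the cDKO (-0.90, limma adjusted p = 0.0358), and Cd3d (-0.034) and Cd3e (-0.36) were not. Against only the WT of set 3, Cd3g was not called (-0.82, limma adjusted p = 0.315). The part of the CD3 mean in the direction counts was not tested beyond the slopes fitted with it, and these knockout contrasts were fitted without it. Of the 39 genes higher with Prdm1 in that fit, 35 were lower in the Prdm1 cKO (89.7%, against 61.8% of all with a positive slope). In the cDKO 37 were lower (94.9%, against 65.7%). Of the 17 lower ones, 8 were higher in the Prdm1 cKO (47.1%, against 53.8% of all with a negative slope) and 13 in the cDKO (76.5%, against 59.9%).

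The count was repeated with slopes and contrasts that share no library. These slopes were fitted without column set as a covariate, so they include differences between the sets. Slopes from the 9 WT libraries of sets 2 and 3 called 360 genes higher that were also tested in the contrast. Of these, 289 (80.3%, against 62.7% of all with a positive slope) were lower in the Prdm1 cKO than in the 7 WT libraries of set 1. Only 6 of the 360 were called lower (1.67%, against 0.371%). Of 209 genes lower with Prdm1, 148 were higher in the Prdm1 cKO (70.8%, against 58.5%), and 1 was called higher (0.478%, against 0.0989%). Prdm1 was 9.38 to 18.81 in set 1 and 19.42 to 24.85 in set 2. A slope over both therefore cannot be fully told apart from a difference between these sets. Slopes from the 11 WT libraries of sets 1 and 2 called 659 genes higher that were also tested in the contrast. Of these, 592 (89.8%, against 64%) were lower in the cDKO than in the 5 WT libraries of set 3, and 44 were called lower (6.68%, against 2.48%). Of 354 genes lower with Prdm1, 270 were higher in the cDKO (76.3%, against 62.4%), and 41 were called higher (11.6%, against 5.28%). Havcr2 had slopes of 1.40 and 1.35 in these 2 sets of libraries, and differences of -2.66 and -3.29.

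Within WT, 587 genes called in sets 2 and 3 had the same sign in set 1 in 527 cases (89.8%), against 64.1% of all genes tested. Set 1 alone called 0 genes with limma, and 278 passed an unadjusted p of 0.01. No gene passed limma's test of a difference in slope between column sets, with 418 genes at an unadjusted p under 0.05 (3.99%). With 7, 4 and 5 WT libraries in the sets, this test can miss large differences, so it does not show equal slopes.

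Promoter sequence is shown for a pair of genes that were higher with Prdm1, one with and one without a short motif of the Blimp-1 type. The motif GTGAAAG was searched on both strands in the 250 bases before the RefSeq start (GRCm38.p6), and was found for 3.55% of the 8472 tested genes with an entry, of 10484 tested. Capitals mark the match, which lies on the strand opposite to the gene.
Serpinb9 (chr13:33004291-33004540, plus strand): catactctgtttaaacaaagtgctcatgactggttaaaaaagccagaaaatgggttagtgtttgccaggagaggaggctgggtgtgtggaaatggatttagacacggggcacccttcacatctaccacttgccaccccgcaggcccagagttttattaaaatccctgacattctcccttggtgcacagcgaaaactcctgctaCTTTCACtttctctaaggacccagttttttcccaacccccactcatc
Havcr2 (chr11:46454681-46454930, plus strand): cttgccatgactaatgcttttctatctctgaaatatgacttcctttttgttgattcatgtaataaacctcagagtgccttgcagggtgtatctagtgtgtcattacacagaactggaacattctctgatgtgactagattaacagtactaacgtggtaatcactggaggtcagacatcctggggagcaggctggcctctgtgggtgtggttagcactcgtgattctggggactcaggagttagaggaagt
Serpinb9, a granzyme B inhibitor, had a slope of 1.03 (limma adjusted p = 0.00784) and differed from WT by -1.81 in the Prdm1 cKO (limma adjusted p = 0.0133). Against only the WT of set 1 it differed by -1.63 (limma adjusted p = 0.00466). A match is a description of these letters, not of binding. Of the genes higher with Prdm1 79.9% had an entry, and of the lower genes 80.9%. The motif was found for 3.27% and 3.44% of these, near the 3.55% of all tested genes with an entry. The shares were not tested against each other.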

How the data were processed

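Bulk RNA sequencing of tumour CD8+ T cells gave 1 table of 25 libraries and 23366 symbols. TopHat, RSEM, DESeq and the mm9 build are named per the submitters' processing notes, without versions or order. The deposited values, read here as a normalised signal, are not counts, and their exact scale and the depth behind them are unknown. Columns carry a genotype and no replicate number, so they were mapped to groups only.

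From these values log2(value + 1) was fitted with limma 3.58.1 (trend and robust) in R 4.3.3, as a slope on Prdm1 over 16 WT libraries and as group differences over 25, with Benjamini-Hochberg adjustment over all genes tested. Genes needed a value of at least 1 in 8 WT libraries or, for group differences, also in all 3 of a knockout group. Correlations used 100000 permutations. Fits were tested on simulated data with known slopes and changes. The named genes were the 10 of highest and the 10 of lowest moderated t on Prdm1 among genes with a WT mean of at least 5, 5 each likewise with the CD3 mean, from each list the 2 of largest absolute t and any member called (ribosomal genes: the 2 only), 5 each way called in both knockouts, and genes known to depend on Prdm1. The members, lists and rules were chosen with earlier results of these data known. The alternatives included other pseudocounts, filters, scalings and covariates. Those with the melanoma score, Rn45s or the libraries of some column sets were chosen after seeing the data.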

Additional observations from a re-analysis of the deposited data

How the results depend on the processing

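No paired analysis was possible because the columns carry no replicate numbers. The 1676 genes related to Prdm1 became 345 without the 2 libraries farthest from the median of Prdm1, 645 with column set, 498 with the melanoma score, 604 with Rn45s, 56 with the CD3 mean, 1 after rescaling to an equal CD3 mean, 0 in column set 1 only and 590 in sets 2 and 3. Ordered by other genes the count was 394 (Tcf7), 337 (Tox), 701 (Tbx21), 453 (Eomes) and 0 (Irf4). Leaving out 1 library each gave 652 (without B3) to 1931. The split of higher against lower calls was 943 against 226 with a minimum of 10, 797 against 845 with no filter and 665 against 743 after median-of-ratios rescaling. With the CD3 mean, the 56 genes became 14 with no filter, 0 with column set, 23 with the rank of Prdm1, 21 with its linear value, 202 with the melanoma score and 0 with Rn45s, and 0 (without B4) to 75 leaving out 1 library, with 25 without A3, 20 without A8, 16 without A11, 25 without B2, 11 without B8 and 20 without B9. The Prdm1 cKO count of 460 became 61 with column set, 149 with the CD3 mean and 33 against the WT of its own set, and 91 (without A9), 141 (without A6) and 668 (without A5) leaving out 1 knockout library. The cDKO count of 1517 became 463 against its own set, and 551 (without A2), 800 (without A1) and 1338 (without C2). The share running opposite to the slope, 86.81% in the Prdm1 cKO and 81.09% in the cDKO, was 76.79% and 89.29% with the CD3 mean, 76.80% and 85.09% with no shared library, and 81.79% and 76.95% at an unadjusted p under 0.05. Of the 16 measures, 6 were related to Prdm1, against 2 without the 2 farthest libraries, 1 with column set, and 5 (without B5) to 8 (without B1) leaving out 1 library. The cause was not tested. Slopes that changed sign were those of Ccl5 (-0.025 after median-of-ratios rescaling, -0.077 without the 2 farthest libraries, -0.0012 on linear Prdm1, -0.089 with the macrophage score, -0.28 with the melanoma score, -1.01 with the CD3 mean, -1.04 at an equal CD3 mean, -0.15 in sets 2 and 3, and -0.12 to 0.17 leaving out 1 library), Klrg1 (0.073 with Rn45s, and -0.29 to 0.066 leaving out 1 library), Cd3d and Cd3e (-0.27 and -0.14 at an equal CD3 mean), and Gzme, Lef1, Fam101b and Ifng (-0.17, 0.051, 0.10 and -0.28 in column set 1). In the CD3 fit they were those of Gzmb (-0.13 with column set), Cd96 (-0.25 with Rn45s) and, leaving out 1 library, Id3 (-1.45 to 0.046), Cd244 (-0.49 to 0.98), Serpinb9 (-0.22 to 0.65), Tnfrsf4 (-0.033 to 1.69) and Mitf (-1.30 to 0.15). Precision is limited by 16 libraries in 3 column sets and by an unknown depth.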
